A study of Mus musculus with 7 samples.

Results

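Adipokines are proteins that fat cells secrete, and 10 genes were followed in neonatal brown fat: those of the secreted proteins adiponectin (Adipoq), leptin (Lep), resistin (Retn), adipsin (Cfd), angiotensinogen (Agt), retinol-binding protein (Rbp4), Sfrp5 and neuregulin 4 (Nrg4), and those of the adiponectin receptors Adipor1 and Adipor2. They were chosen by name, and every probe set that the probe table pairs with 1 of them was used. The table held 14 such probe sets, for 9 of the 10 genes, out of 45037 probe sets that are not controls. Cfd is not analysed here, because 0 probe sets were paired with it.

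The tissue was brown fat of C57BL/6J mice that were labelled male and aged 3 days. The KO group carried a knockout of Gyk, the gene of glycerol kinase, and had 4 arrays (replicates 1 to 4), whereas the wild-type (WT) group had 3 arrays (replicates 1, 3 and 4) and served as the control. Total RNA extracted with Trizol was labelled with biotin and hybridised with 1 sample per array. The comparison asks how the loss of glycerol kinase, which makes glycerol 3-phosphate for triglyceride assembly, goes along with transcript levels in this tissue, and the knockout is not stated to be limited to fat. Whether the numbered replicates came from different animals is not stated in the labels, so each p-value covers only the spread among these samples, which may be technical.

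Adiponectin circulates as multimers and acts through AdipoR1 and AdipoR2, membrane proteins of the PAQR family that activate AMPK and PPARα pathways. Leptin reports fat stores to the brain, and resistin is a cysteine-rich hormone of mouse adipocytes. RBP4 carries retinol in blood and comes mainly from liver, with fat as a further source, and neuregulin 4 is an ErbB ligand secreted by brown fat. Angiotensinogen is the precursor of angiotensin peptides, and Sfrp5 binds Wnt proteins and limits their signalling.

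Promoter sequences are shown for the 4 genes that passed the test with all arrays or without 1 array (Rbp4, Lep, Retn and Adipor1), and for Adipoq, the best known adipokine, which did not. Each line holds the 250 bases before the most upstream RefSeq start of the gene, 5′ to 3′ on the gene's strand. Coordinates are of build GRCm38.p6: Rbp4 at chr19:38125322-38125571 (minus strand), Lep at chr6:29059971-29060220 (plus), Retn at chr8:3655520-3655769 (plus), Adipor1 at chr1:134415128-134415377 (plus) and Adipoq at chr16:23146286-23146535 (plus). Capitals mark matches on either strand to 1 of 7 motifs: TATAAA (a core promoter box), TTNNGNAA (C/EBP), CCAAT (NF-Y), GGGCGG (GC box), TGTTCT (glucocorticoid receptor half-site), AGGTCA (nuclear receptor half-site) and CACGTG (clock E-box).
Rbp4: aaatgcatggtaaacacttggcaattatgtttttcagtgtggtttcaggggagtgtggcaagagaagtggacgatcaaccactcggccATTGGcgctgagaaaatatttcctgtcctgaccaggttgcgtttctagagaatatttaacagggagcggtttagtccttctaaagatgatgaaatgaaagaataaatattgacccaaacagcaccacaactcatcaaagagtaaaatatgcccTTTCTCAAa
Lep: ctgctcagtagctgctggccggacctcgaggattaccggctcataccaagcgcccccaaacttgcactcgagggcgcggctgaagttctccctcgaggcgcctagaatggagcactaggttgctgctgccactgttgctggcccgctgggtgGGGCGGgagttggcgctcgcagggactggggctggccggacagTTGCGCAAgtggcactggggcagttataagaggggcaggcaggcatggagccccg
Retn: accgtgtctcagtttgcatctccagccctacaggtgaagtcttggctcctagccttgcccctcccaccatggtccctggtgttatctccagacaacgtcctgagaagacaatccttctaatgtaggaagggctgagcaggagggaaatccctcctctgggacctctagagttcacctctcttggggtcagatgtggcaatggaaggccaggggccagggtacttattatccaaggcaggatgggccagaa
Adipor1: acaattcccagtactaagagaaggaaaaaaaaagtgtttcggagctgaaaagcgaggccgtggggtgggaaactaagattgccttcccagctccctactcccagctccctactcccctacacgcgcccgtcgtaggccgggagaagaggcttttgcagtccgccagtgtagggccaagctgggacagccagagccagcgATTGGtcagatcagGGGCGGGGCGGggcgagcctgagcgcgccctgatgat
Adipoq: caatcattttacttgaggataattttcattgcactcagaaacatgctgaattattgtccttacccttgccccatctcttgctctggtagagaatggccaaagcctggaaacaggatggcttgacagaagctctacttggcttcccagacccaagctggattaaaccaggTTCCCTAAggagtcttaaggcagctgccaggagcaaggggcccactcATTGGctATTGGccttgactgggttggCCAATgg

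The Rbp4 window held 1 C/EBP match 9 to 2 bases before the start and 1 NF-Y match 162 to 158 bases before it. The Lep window held a C/EBP match that reads the same way on both strands 55 to 48 bases before the start, and a GC box 98 to 93 bases before it. The Retn window held none of the 7 motifs. The Adipor1 window held 1 NF-Y match and 2 GC boxes that overlap by 1 base, and the Adipoq window held 1 C/EBP match and 3 NF-Y matches. Among 32851 RefSeq promoters of the same length, 36.8% held the C/EBP motif, 33.8% the NF-Y motif and 32.7% the GC box. TATAAA was in 12.4%, the glucocorticoid half-site in 16.1%, the nuclear receptor half-site in 14% and the E-box in 6.02%. A match is a description of these letters only. Rbp4, Lep and Adipoq each held the C/EBP motif, and Rbp4, Adipor1 and Adipoq the NF-Y motif.

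All 7 arrays had the same trimmed mean signal (500.003) and medians between 131.2 and 153.7 units. On the first principal component (35.3% of the variance) KO replicates 1, 3 and 4 scored 33.4 to 35.7, KO replicate 2 scored -13.8, and the WT arrays scored -33.3 to -23. KO replicate 2 correlated best with WT replicate 1 (0.975). Xist, which coats the inactive X, was highest on KO replicate 2 on 3 of 3 probe sets, with 2757 units on 1 of them against at most 273 on any other array, although all samples are labelled male. The level of Gyk is not analysed here (0 probe sets paired with it), so genotypes rest on the labels. KO replicate 1 carries no genotype entry and was grouped by its title alone. Leaving it out took the 431 calls over all probe sets to 40, and leaving out any 1 array other than KO replicates 1 and 2 left 7 to 25. Values without KO replicate 2 are given beside those with it. Ucp1, the uncoupling protein that defines the labelled tissue, gave 26887 to 37577 units in KO arrays and 29264 to 33706 in WT arrays. Cox8b, another brown adipocyte marker, was similarly bright, at 27022 to 34130.4 in KO arrays and 26884 to 32524 in WT arrays. Other such markers ranged down to the transcription factor Lhx8, at 266 to 436 in KO arrays and 251 to 333 in WT arrays.

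Of the 14 probe sets, 13 passed the filter on low signals. Rbp4 was the 1 gene that passed the test of KO against WT, at an adjusted p under 0.05 (limma, all 27022 probe sets tested), and it was lower in KO. That is 1 of 13 probe sets, against 1.59% of all probe sets, and 1 of 9 genes by the brightest probe set of each, against 1.85% of all genes. KO and WT arrays did not overlap for 5 of 13 probe sets, against 14.7% of all. Those 5 were Rbp4, Lep and both probe sets of Nrg4, lower in KO, and 1 probe set of Adipor1, higher in KO. The median log2 difference over the 9 genes was -0.14, against -0.01 over all 13102 genes, and 6 of the 9 were below 0, against 51.5% of all genes. Without KO replicate 2, 4 of 13 probe sets passed (Rbp4, Lep and Retn lower, Adipor1 1424312_at higher), against 7.35% of all. Counted by genes, 3 of 9 passed without that array, against 8.43% of all genes.

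**Figure D1:**
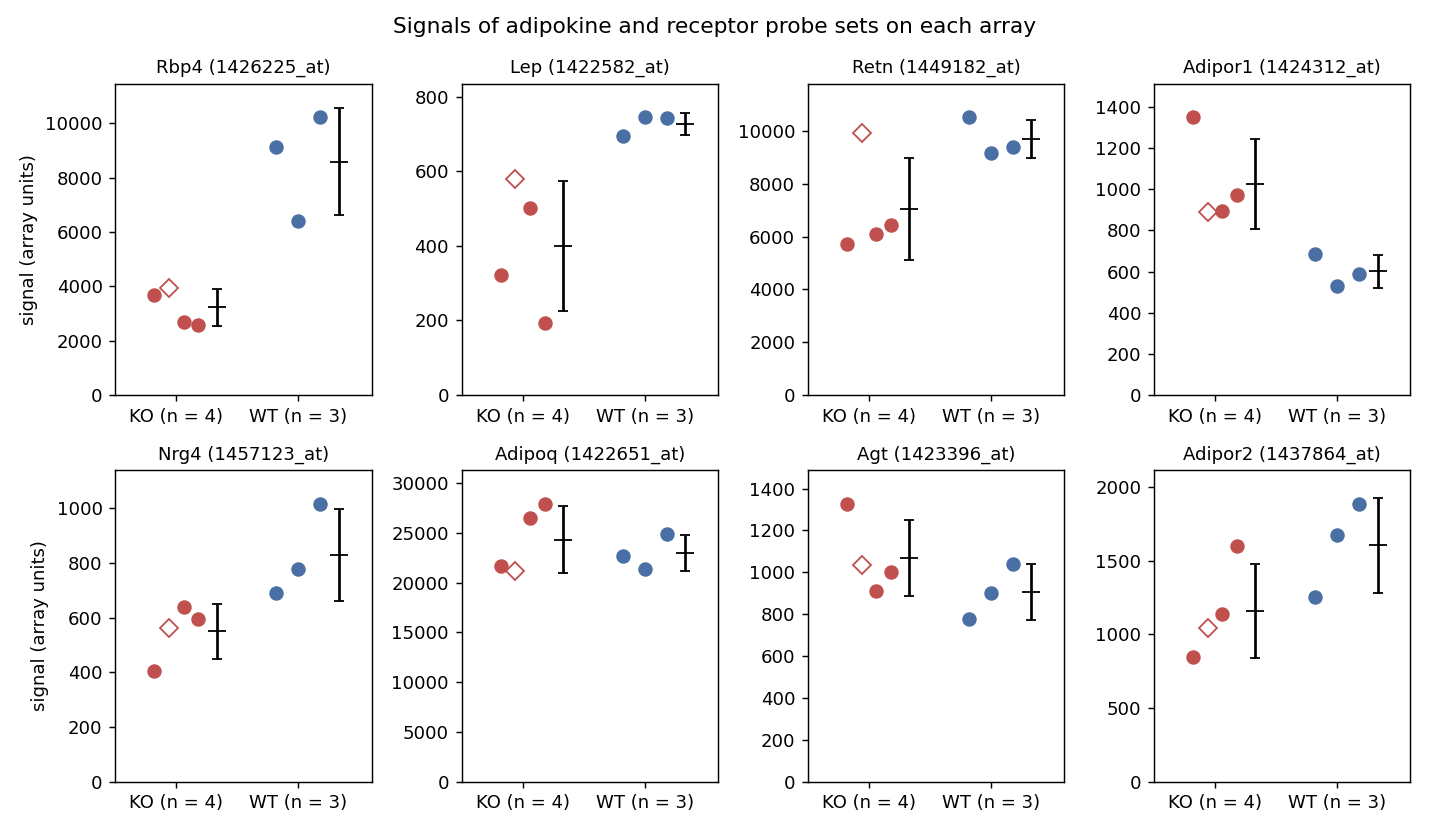
Signal (arbitrary units, linear axis from 0) on every array for 8 adipokine and receptor genes, each by its tested probe set with the smallest p, with KO on the left and WT on the right of each panel; bars are mean ± SD (n = 4 KO, n = 3 WT) and the open diamond is KO replicate 2. For Rbp4 the 4 KO arrays lay at 2558 to 3930.2 units and the 3 WT arrays at 6400.3 to 10228, and for Retn KO replicate 2 (9938) lay within the WT range.

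Rbp4, the blood carrier of retinol, gave 3688, 3930.2, 2700.4 and 2558 units in KO replicates 1 to 4, against 9114, 6400.3 and 10228 units in WT replicates 1, 3 and 4 (1426225_at). Every KO array was below every WT array, and KO replicate 2 was low like the other KO arrays. The means were 3219 ± 691 in KO and 8581 ± 1969 in WT (SD, n = 4 and n = 3), so the KO mean was 37.5% of the WT mean. The log2 difference was -1.40 ± 0.19 (SE, 95% interval -1.82 to -0.98), a 2.65-fold lower level with an adjusted p of 0.0189 by limma. In bulk tissue, fewer cells of a type and less RNA per cell cannot be told apart.

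The direction of the Rbp4 difference was the same under 21 of 21 alternatives, with values between -1.61 and -1.25, and it passed under 15 of them. Leaving out KO replicate 3 (adjusted p 0.0566), KO replicate 4 (0.061), WT replicate 1 (0.0679) or WT replicate 4 (0.0834) ended the call. Without KO replicate 2 the log2 difference was -1.51 (adjusted p 0.00194). The arrays fall into 2 ranges of sample accessions. Within the second range (KO replicates 3 and 4, WT replicates 3 and 4) the difference was -1.61 (adjusted p 0.0134). Within the first (KO replicates 1 and 2, WT replicate 1), which holds only 1 WT array, it was -1.25.

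Because Rbp4 is also a liver product, the hepatocyte markers were set beside it. Of 10 markers 8 had a probe set, and 7 passed the filter. All 7 were below 0 in KO minus WT (median log2 difference -0.51), 0 passed the limma test and 0 had an unadjusted p under 0.05, against 18.2% of all genes by the brightest probe set. The summed signal of the 8 with a probe set was 1613, 9572, 1362 and 12498 units in KO replicates 1 to 4, against 6045, 2011 and 19894 units in WT replicates 1, 3 and 4. The WT arrays stood in the same order for this sum and for Rbp4, whereas KO replicate 4 had the highest sum among KO arrays and the lowest Rbp4. Albumin (Alb) ranged from 411 to 4810.1 units in KO arrays and from 569 to 9470.4 in WT arrays. The part of such RNA in the Rbp4 difference was not tested.

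Leptin (Lep), the hormone that signals fat stores, gave 323, 580, 503 and 193 units in KO replicates 1 to 4, against 694, 746 and 743 units in WT arrays. The 2 groups did not overlap, and the KO arrays spread far more widely than the WT arrays. Means were 400 ± 175 in KO and 728 ± 29 in WT (SD, n = 4 and n = 3). The log2 difference of -0.92 ± 0.29 (95% interval -1.56 to -0.28) did not pass the limma test over all probe sets (adjusted p 0.141). Without KO replicate 2, whose value was the highest of the KO arrays, it was -1.12 ± 0.26 and passed (adjusted p 0.0307). It was -1.16 within the second accession range (adjusted p 0.14) and -0.64 within the first.

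Resistin (Retn) gave 5735, 9938, 6118 and 6457 units in KO replicates 1 to 4, against 10539, 9171 and 9400.4 units in WT arrays. KO replicate 2 lay within the WT range, and the other 3 KO arrays lay close together below it. Means were 7062 ± 1939.7 in KO and 9703 ± 733 in WT (SD). The log2 difference was -0.49 ± 0.17 with all arrays (limma adjusted p 0.18) and -0.67 ± 0.10 without KO replicate 2 (adjusted p 0.00471). Within the second accession range, which does not hold KO replicate 2, it was -0.56 (adjusted p 0.0371), and within the first it was -0.48.

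Markers of white fat and preadipocytes, and of fibroblasts, were set beside Lep and Retn. The summed signal of the 7 white fat and preadipocyte markers was 11644, 16979.6, 15890.3 and 18256 in KO replicates 1 to 4, against 17047 to 18964 in WT arrays. The 8 fibroblast markers summed to 39415, 64678, 56260.4 and 59404 in KO replicates 1 to 4, against 61515 to 70759 in WT arrays. KO replicate 2 lay within the WT range for the fibroblast sum and the other 3 KO arrays below it, whereas for the white fat sum KO replicate 4 lay within the range. That sum is mostly Dlk1, a preadipocyte protein, with 15758 of the 18256 units on KO replicate 4. On the same array, where Lep was lowest, Slc7a10 gave 825 units against 2017 to 2159 in WT arrays, Hoxc8 98.4 against 254 to 269, and Wfdc21 452 against 669 to 1279. Hoxc9 was also below the WT range there, at 50.7 against 79.8 to 142. On KO replicates 1 (201) and 3 (284) Hoxc9 was above that range, and on KO replicate 2 (114) within it. On KO replicate 4, Tcf21 (203 against 138 to 173), Pdgfra (869 against 644 to 733) and Dlk1 (15758 against 12557 to 14992) were above the WT range. Each list had 0 members past the limma test with all arrays (3 of 7 and 3 of 8 at an unadjusted p under 0.05, against 18.2% of all genes). Without KO replicate 2, 3 lower members of each list passed, against 8.43% of all genes. They included Slc7a10, an amino acid transporter of white adipocytes (1244 ± 453 in KO, 2089 ± 71.1 in WT, SD), among white fat markers, and Lum, a matrix proteoglycan, among fibroblast markers (1553 ± 719 in KO, 2713 ± 232 in WT, SD). Their part in the values of Lep and Retn was not tested. The 12 mature adipocyte markers summed to 182621 to 226709 in KO arrays and 182796 to 208143 in WT arrays, with 0 past the limma test by the brightest probe set (1 at an unadjusted p under 0.05). Fabp4, a fatty acid carrier among them, passed on 1 dimmer probe set (log2 difference 0.48, adjusted p 0.0403) and was 0.06 on its brightest.

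Adiponectin (Adipoq), the most abundant adipokine in blood, gave 21640.3, 21189, 26519 and 27911 units in KO replicates 1 to 4, against 22625, 21404 and 24884 units in WT arrays. The groups overlapped, with 2 KO arrays near the lowest WT value and 2 above the highest. The log2 difference was 0.07 ± 0.12 (95% interval -0.20 to 0.34, limma adjusted p 0.826). This probe set was among the brightest 0.178% on the arrays, where signals can be compressed, and under quantile normalization the difference was -0.02.

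Neuregulin 4 (Nrg4) had 2 probe sets that differed in the size of the difference. The first, 1457123_at, gave 406, 564, 638 and 596 units in KO replicates 1 to 4, against 691, 779 and 1017 in WT arrays. The second, 1421681_at, gave 2071, 1879, 2138 and 2244 units in KO replicates 1 to 4, against 2325, 2258 and 2302 in WT arrays. On both, every KO array was below every WT array, by a narrow margin on the second. The log2 differences were -0.56 ± 0.18 (95% interval -0.96 to -0.17, limma adjusted p 0.148) and -0.14 ± 0.10 (-0.37 to 0.09, adjusted p 0.553). Neither passed, and without KO replicate 2 they were -0.58 (adjusted p 0.109) and -0.09 (adjusted p 0.645).

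Angiotensinogen (Agt) gave 1327, 1036, 911 and 1002 units in KO replicates 1 to 4, against 777, 900 and 1042 units in WT arrays. Only KO replicate 1 lay above all WT arrays. The log2 difference was 0.23 ± 0.15 (95% interval -0.11 to 0.57, limma adjusted p 0.514), with 0.58 in the first accession range and -0.02 in the second. Sfrp5, the secreted Wnt binder, was dim and variable, with 151, 117, 45.3 and 133 units in KO replicates 1 to 4, against 42.3, 319 and 248 in WT arrays (1436075_at). WT replicate 1 was the lowest of all 7 arrays and the other 2 WT arrays were the highest. The log2 difference of -0.51 ± 0.50 (95% interval -1.60 to 0.59, limma adjusted p 0.683) was 1.17 in the first accession range and -1.49 in the second. The other Sfrp5 probe set did not pass the filter, with 25.3 to 50.5 units in KO arrays and 15.5 to 68.9 in WT arrays.

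The receptor Adipor1 had 3 probe sets, and all 3 had a higher mean in KO. On 1424312_at the signals were 1352, 892, 894 and 972 units in KO replicates 1 to 4, against 686, 528 and 589 units in WT arrays. No KO array overlapped the WT range there. The means were 1027 ± 219 in KO and 601 ± 79.5 in WT (SD), and the log2 difference of 0.73 ± 0.17 (95% interval 0.37 to 1.10) narrowly missed the threshold (limma adjusted p 0.0577). Without KO replicate 2 it was 0.79 and passed (adjusted p 0.023), and with the accession range as a covariate it was 0.69 and passed narrowly (adjusted p 0.0499). Within the second range it was 0.71 and within the first 0.66.

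The other Adipor1 probe sets showed smaller differences. Probe set 1439017_x_at gave 4661, 4154, 5290.5 and 4957 units in KO replicates 1 to 4, against 4106, 3659.9 and 4347 in WT arrays. Probe set 1451311_a_at gave 3777, 3110.5, 3906 and 3814 units in KO replicates 1 to 4, against 3086, 3023 and 3184 in WT arrays. On both, KO replicate 2 lay within the WT range and the other 3 KO arrays above it. The log2 differences were 0.24 ± 0.11 (limma adjusted p 0.337) and 0.23 ± 0.11 (adjusted p 0.326), and neither passed without KO replicate 2 (0.124 and 0.0779). The probe sets of Adipor1 thus disagreed in size, at 1.66-fold on the first against 1.18-fold and 1.17-fold on the others.

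Adipor2, the other adiponectin receptor, had 2 probe sets. The brighter, 1434329_s_at, gave 12345, 12776, 13182 and 15455 units in KO replicates 1 to 4, against 13919, 11639 and 15179 in WT arrays. The groups overlapped, and the log2 difference was -0.01 ± 0.12 (95% interval -0.28 to 0.25, limma adjusted p 0.979). The dimmer, 1437864_at, gave 847, 1045, 1140.3 and 1603 units in KO replicates 1 to 4, against 1253, 1675 and 1887 in WT arrays. Of the KO arrays, 3 lay below the WT range and replicate 4 within it. The log2 difference was -0.48 ± 0.20 (95% interval -0.93 to -0.03, limma adjusted p 0.275).

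**Figure D2:**
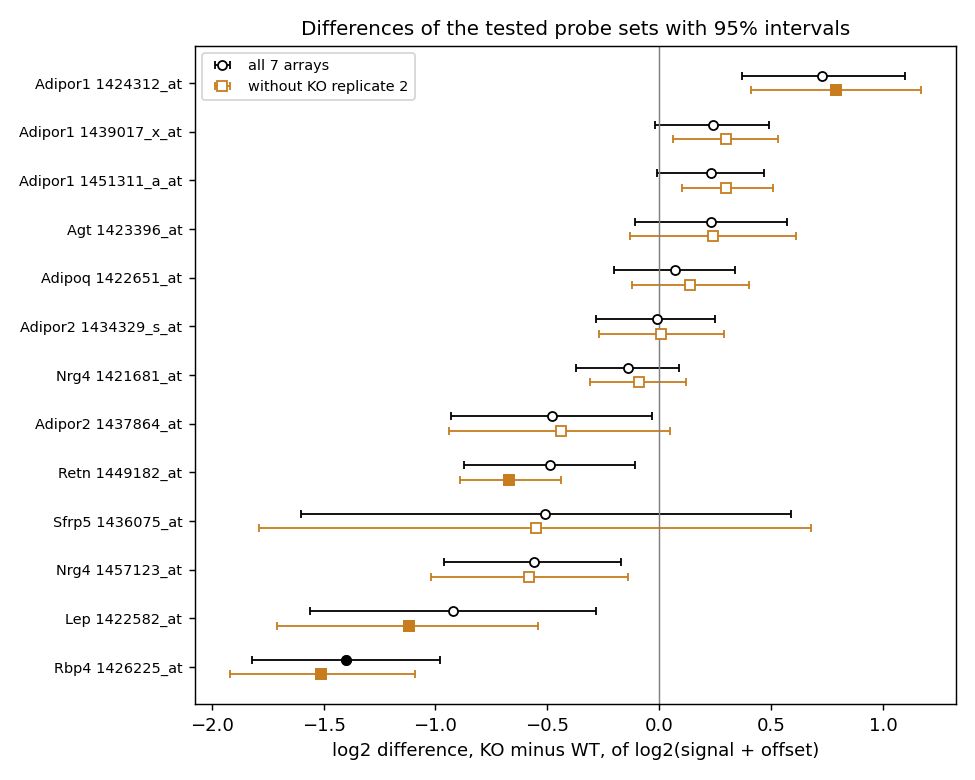
Log2 difference of KO minus WT, on log2(signal + 30.6), for the 13 tested probe sets, with 95% intervals; circles use all 7 arrays, squares leave out KO replicate 2, and filled symbols passed the limma test at an adjusted p under 0.05. With all arrays Rbp4 (-1.40) is filled, and without KO replicate 2 Rbp4 (-1.51), Lep (-1.12), Retn (-0.67) and Adipor1 1424312_at (0.79) are.

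Array by array, the KO samples did not share 1 profile. Relative to the WT mean on the log2 scale, Rbp4 was -1.18, -1.09, -1.63 and -1.71 in KO replicates 1 to 4. Lep was -1.10, -0.31, -0.51 and -1.76, lowest in replicates 1 and 4, whereas Retn was -0.75, 0.04, -0.66 and -0.58. Adipor1 1424312_at was 1.14, 0.55, 0.56 and 0.67, highest in replicate 1. KO replicate 2 thus stood with the other KO arrays for Rbp4 and Adipor1 1424312_at, was closer to WT for Lep and lay within the WT range for Retn.

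**Figure D3:**
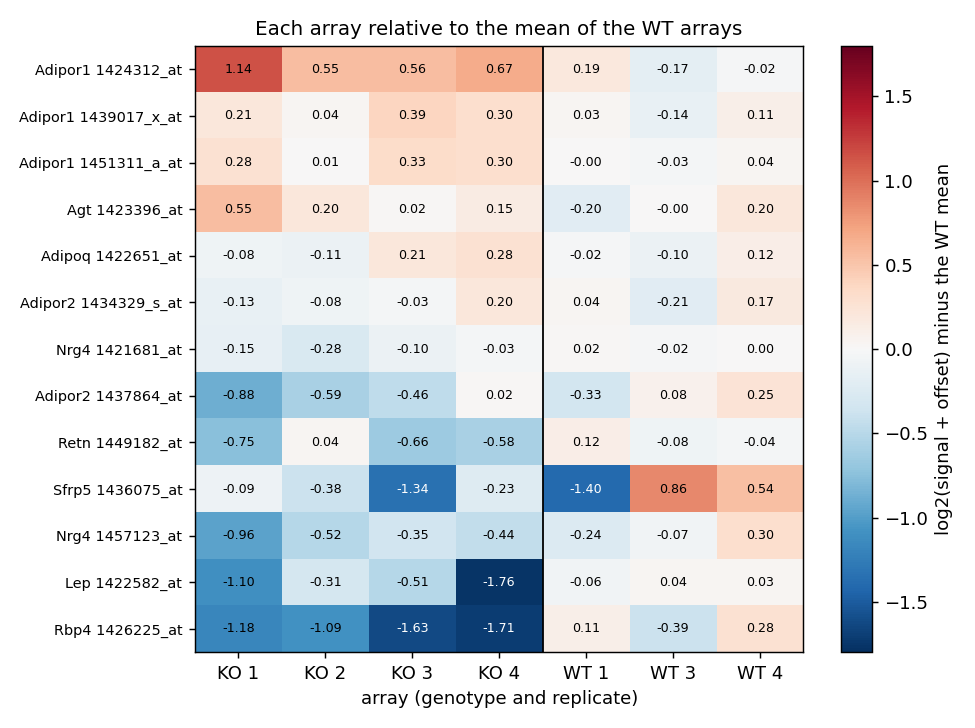
Heat map of log2(signal + 30.6) minus the WT mean for the 13 tested probe sets (rows) on the 7 arrays (columns, KO left and WT right). Rbp4 is between -1.71 and -1.09 in the 4 KO columns, and Retn is 0.04 in the column of KO replicate 2 against -0.75 to -0.58 in the other KO columns.

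Receptors and carriers of these hormones were read next; these genes were singled out after values were seen. Lepr, the leptin receptor, gave 123 to 241 units in KO arrays and 56.9 to 242 in WT arrays on its brightest probe set, with a log2 difference of 0.64 ± 0.36 (limma adjusted p 0.416). Its other tested probe set went the other way, at 88.4 ± 30.8 in KO and 119 ± 15.1 in WT (-0.35, adjusted p 0.538). Cdh13, which binds adiponectin multimers at the cell surface, averaged 1057 ± 126 in KO and 1177 ± 98 in WT (log2 difference -0.16, adjusted p 0.62). Cap1, reported in humans as a resistin receptor, averaged 376 ± 77.5 in KO and 284 ± 23.6 in WT (0.35, adjusted p 0.365). Agtr1a and Agtr2, the angiotensin receptors, had log2 differences of -0.22 (adjusted p 0.465) and -0.01 (adjusted p 0.988). Stra6, the membrane receptor of RBP4, was dim and not tested, at 14.2 to 24.9 units in KO arrays and 14.5 to 29.6 in WT arrays. Ttr, the protein that binds RBP4 in blood and another liver product, ranged from 213 to 3235 units in KO arrays and from 354 to 5931 in WT arrays (log2 difference -0.68 ± 0.96, adjusted p 0.796). Of the ErbB receptors that bind neuregulins, Erbb3 had a log2 difference of -0.03 (adjusted p 0.966), and Erbb4 was too dim to be tested. All these receptors and carriers overlapped between KO and WT arrays on the probe sets named.

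The pathways around the hormones were read from lists of 212 genes, of which 162 had a tested probe set. By the brightest probe set, 6 of the 162 passed the limma test (5 higher and 1 lower in KO), or 3.7% against 1.85% of all genes, with a median log2 difference of -0.02 against -0.01. Counts at an unadjusted p under 0.05 are given for lists with no call, by the same probe sets, and over all genes 18.2% lay under it. Of the 17 measured genes of adiponectin assembly and signalling 0 passed (limma; 1 at an unadjusted p under 0.05). Erp44, a chaperone that retains adiponectin in the early secretory pathway, was 266 ± 66 in KO and 454 ± 64 in WT on 1 probe set (log2 difference -0.72, adjusted p 0.0888) but 0.01 on its brightest. Sirt1, a deacetylase, was 719 ± 84.6 in KO and 523 ± 44.2 in WT (0.43, adjusted p 0.143). In the PAQR family, to which the adiponectin receptors belong, 1 of 7 passed, against 1.85% of all genes. This was Mmd2, with 468, 476, 932 and 698 units in KO replicates 1 to 4, against 356, 200 and 122 in WT arrays. It was higher on every KO array, with log2 differences of 1.44 (adjusted p 0.0498) and 1.25 (adjusted p 0.0384) on its 2 probe sets. On the first it passed under 7 of 21 alternatives, and quantile normalization (adjusted p 0.058), median scaling (0.0618) and the accession range as a covariate (0.0528) were among those that ended the call. Its difference there was 2.16 within the second accession range and 0.38 within the first, and on the other probe set 1.68 and 0.52. Of 8 measured C1q/TNF-related proteins, relatives of adiponectin, 0 passed (limma; 3 at an unadjusted p under 0.05), with C1qtnf1 at 0.56 (adjusted p 0.108) and C1qtnf6 at -0.59 (adjusted p 0.166).

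Downstream of leptin, 1 of 14 measured genes passed, against 1.85% of all genes. Ptpn11, a phosphatase that couples the leptin receptor to ERK, rose to 4345 ± 432 units in KO, against 2964 ± 155 in WT (log2 difference 0.54, adjusted p 0.0403), while its other 2 probe sets, at 0.01 and 0.52, did not pass. In the resistin family and its receptors 0 of 4 passed (limma; 1 at an unadjusted p under 0.05). Retnla, a resistin-like molecule, was 39.9, 266, 53.7 and 111 units in KO replicates 1 to 4, against 377, 182 and 182 in WT arrays. KO replicate 2 again lay within the WT range, and the log2 difference was -1.07 with all arrays (adjusted p 0.264) and -1.49 without that array (adjusted p 0.0292). Tlr4, which also binds resistin in human cells, had a log2 difference of -0.38 (adjusted p 0.341).

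In the alternative complement pathway, in which adipsin acts, 0 of 13 genes passed by the brightest probe set (limma; 1 at an unadjusted p under 0.05). Masp1, a protease that can activate pro-adipsin in mice, passed on 1 dimmer probe set, at 45.2 ± 21.7 units in KO and 220 ± 81.2 in WT (-1.72, adjusted p 0.0346), and was -0.40 on its brightest (adjusted p 0.238). In the renin-angiotensin list 0 of 9 passed (limma; 3 at an unadjusted p under 0.05), with 8 of 9 below 0. Enpep, which cleaves angiotensin II, was 730 ± 85.4 in KO and 1037 ± 85.1 in WT (-0.49, adjusted p 0.0938), and Ace, the angiotensin-converting enzyme, was -1.29 on 1 dim probe set (adjusted p 0.129) and -0.15 on its brightest. In retinol transport and retinoic acid signalling 0 of 13 passed (limma; 5 at an unadjusted p under 0.05). Rxra, a retinoid X receptor, was 1195 ± 120 in KO and 842 ± 86.1 in WT (0.49, adjusted p 0.085), and Rbp7, a cellular retinol-binding protein, was 2750.0 ± 622 in KO and 4006 ± 233 in WT (-0.57, adjusted p 0.129).

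In the Wnt list 0 of 19 passed (limma; 2 at an unadjusted p under 0.05), and Ctnnb1, which encodes β-catenin, was nearest with 2815 ± 113 units in KO and 3829 ± 251 in WT on 1 probe set (-0.44, adjusted p 0.0537). Mapk8, a JNK kinase, was 0.54 on 1 probe set (adjusted p 0.0801) and 0.12 on its brightest. Among neuregulins, ErbB receptors and their partners 0 of 9 passed (limma; 2 at an unadjusted p under 0.05). Errfi1, a feedback inhibitor of ErbB receptors, was 1402 ± 387 in KO and 729 ± 71.9 in WT (0.88, adjusted p 0.0547). Btc, the ErbB ligand betacellulin, was 1317, 366, 576 and 1229 units in KO replicates 1 to 4, against 296, 296 and 219 in WT arrays. Every KO array was above every WT array, and the log2 difference of 1.42 (adjusted p 0.0866) was 1.76 without KO replicate 2 (adjusted p 0.00595).

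Among 21 other secreted factors of fat, 1 rose and 1 fell by the brightest probe set, against 1.85% of all genes past the test. Apelin (Apln), a vascular peptide hormone, fell to 725 ± 161 units in KO, against 1401 ± 110 in WT (-0.94, adjusted p 0.0298). Nampt, the enzyme of NAD synthesis also known as visfatin, rose to 9909 ± 1942 units in KO, against 5551 ± 643 in WT (0.82, adjusted p 0.0371), while its other probe sets, at 0.38 and 0.47, did not pass. Igf1, the growth factor, passed on 1 of 4 probe sets (-1.03, adjusted p 0.0437) and on 4 of 4 without KO replicate 2. Without that array, 3 higher and 4 lower genes of this list passed by the brightest probe set, against 8.43% of all genes. Of 13 receptors of other adipokines 0 passed (limma; 5 at an unadjusted p under 0.05). Igf1r was 0.46 on its brightest probe set (adjusted p 0.115) and 0.00, 0.20 and 0.10 on its others. Il6st was 0.45 on 1 probe set (adjusted p 0.112), but -0.16 on its brightest (adjusted p 0.49) and -0.24 and -0.09 on the others.

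Of 15 measured transcription factors and coactivators of adipokine genes, 2 rose by the brightest probe set, against 1.85% of all genes past the test. Cebpd, a C/EBP factor, gave 2269, 1274, 1217 and 1862 units in KO replicates 1 to 4, against 619, 662 and 581 in WT arrays (log2 difference 1.33, adjusted p 0.0217). Its dimmer probe set, at 0.79, did not pass (adjusted p 0.14). Klf15, a Krüppel-like factor, gave 1824, 490, 1330 and 1651 units in KO replicates 1 to 4, against 254, 235 and 138 in WT arrays (2.38, adjusted p 0.0228). Both were above the WT range on every KO array, and Klf15 was lowest on KO replicate 2. Ebf1, an early B-cell factor of adipocytes, passed on 2 of 5 probe sets (0.63 on each, adjusted p 0.0444 and 0.0446), while its brightest was at 0.61 (adjusted p 0.279). Under the 21 alternatives, Cebpd passed in 14, Klf15 and Apln in 12 each, Nampt in 11 and Ptpn11 in 10. Nampt was 1.03 within the second accession range and 0.51 within the first, and Klf15 was 2.84 and 1.79. Leaving out any 1 array other than KO replicate 2 left 0 or 1 of the 162 list genes past the test, and array weights left 16. Without KO replicate 2, 22 of them passed (12 higher and 10 lower), against 8.43% of all genes.

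**Figure D4:**
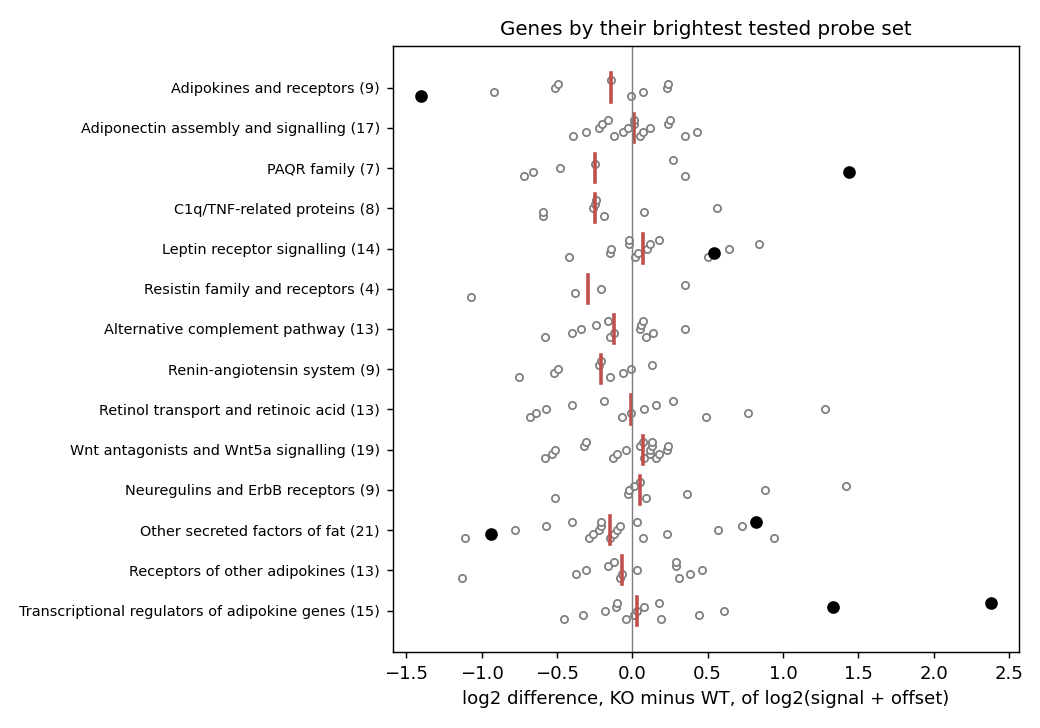
Log2 difference of KO minus WT for each measured gene, by its brightest probe set, in the adipokine set and the pathway lists; black points passed the limma test at an adjusted p under 0.05 and red bars are list medians. Rbp4 (-1.40) is the black point of the adipokine set, and Klf15 (2.38) lies highest of all the genes drawn.

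Of 7 measured neutrophil markers 1 passed, Chil3, at 550 ± 239 units in KO and 99.4 ± 45.7 in WT (log2 difference 2.09, limma adjusted p 0.034), against 1.85% of all genes. At an unadjusted p under 0.05 there were 4 of 7, and 7 of 7 were above 0. Without KO replicate 2, 2 passed, both higher, against 8.43% of all genes; the other was Ngp, a granule protein (0.73, adjusted p 0.0322). The 8 neutrophil markers with a probe set, not all of them tested, summed to 6149.9 to 10860.4 in KO arrays and 4295 to 6836 in WT arrays, so the groups overlapped. The 10 macrophage markers summed to 10403 to 17469.9 in KO arrays and 12580.5 to 13626 in WT arrays, with 0 past the limma test (2 at an unadjusted p under 0.05). The part of these cells in the adipokine values was not tested.

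The genes whose arrays most resembled Rbp4 were Cers4, 6430571L13Rik and Cep55, each with a Pearson correlation of 0.993 over the 7 arrays, out of 22848 probe sets of other named genes. The 7 arrays share the genotype split, so this is a description of likeness only. Cep55, a protein of cell division, averaged 102 ± 16.5 units in KO and 257 ± 49.6 in WT (log2 difference -1.11, adjusted p 0.0328). Cers4, a ceramide synthase, averaged 148 ± 14.4 in KO and 208 ± 14.8 in WT (-0.42, adjusted p 0.253), and 6430571L13Rik 111 ± 18.1 in KO and 246 ± 45.4 in WT (-0.96, adjusted p 0.0451).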

How the data were processed

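The authors deposited linear signal intensity values for each probe set; their software was GCOS 1.2, per the submitters' processing notes, and how it scaled the arrays is not given. The table held 45101 probe sets, of which 64 controls were left out. The probe table gave 1 symbol for 34945, several for 932 and none for 9160. Names come only from probe sets that have 1 symbol, updated through a RefSeq gene table.

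An offset of 30.6 (the 20th percentile of the values) was added before taking log2, which understates the change of dim probe sets. Probe sets with a mean log2 value under the 40th percentile were left out, which left 27022. KO (n = 4) was compared with WT (n = 3) with limma 3.58.1 under R 4.3.3 (two-sided moderated test with a trend in the variance prior), p-values being Benjamini-Hochberg adjusted over all probe sets and a threshold of 0.05. In data simulated on 27022 probe sets, this test recovered 53.7%, 94% and 100% of seeded log2 changes of 1, 2 and 3, with 12 false calls. The simulated noise was independent and no array stood apart as KO replicate 2 did, so these rates may not hold for the real arrays. The number of arrays limits the precision.

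Named were every member, in each pathway list the genes that passed on any probe set (up to 6) and the 2 with the smallest p otherwise, and the 3 genes most like a member that passed; the cell markers, receptors and carriers named were picked with their values known. Members and lists were chosen with earlier results of these data known. Promoter sequences are from RefSeq, build GRCm38.p6, with 10 of the 10 genes matched. Same-numbered KO and WT arrays deviated from their group means with correlations of 0.0567, 0.149 and 0.105, so the numbers were not treated as pairs. Alternatives changed the normalization, offset, filter, variance model and array weights, used the replicate number as a block, used the accession ranges, or left out each array. The fit without KO replicate 2 and with the accession range was added after seeing the data.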

Additional observations from a re-analysis of the deposited data

Results flagged for a closer look

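In Adipor1, probe set 1451311_a_at stood apart on KO replicate 2, with 3110.5 units against 3777 to 3906 on the other KO arrays. The gap to the nearest array was 0.838 of the whole range, above the critical value of 0.829 for 4 samples. In all, 13 groups of KO arrays were checked in this way, and chance passes about 1 in 20.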

How the results depend on the processing

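Over all probe sets tested, 431 passed, and the same count was 235 with array median scaling, 100 with no filter, 6 with no mean-variance trend, 1312 with array weights, 726 within the second accession range, 0 within the first (limma; 1024 at an unadjusted p under 0.05), 2330 without KO replicate 2 and with the accession range as a covariate, and 7 to 1986 leaving out 1 array. Of the 13 adipokine and receptor probe sets 1 passed, and 2 passed with a filter at the 60th percentile, with array weights, with the accession range as a covariate or within the second range. Of these probe sets 0 passed without the trend (5 at an unadjusted p under 0.05) or within the first range (2), 5 without KO replicate 2 and with the covariate, and 0 to 4 leaving out 1 array. Counted by genes (1), these were 0 without the trend, 2 within the second range, 0 within the first, 3 without KO replicate 2 and with the covariate, and 0 to 3 leaving out 1 array. Of the 162 pathway genes 6 passed, and 3 passed with median scaling, 1 with no filter, 0 without the trend, 16 with weights, 0 within the first range, 28 without KO replicate 2 and with the covariate, and 0 to 22 leaving out 1 array. The highest of each range was without KO replicate 2. The first accession range held only 1 WT array, so the counts within it cannot show that differences were absent.

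The fit with the replicate number as a block, which leaves out KO replicate 2 because no WT array shares its number, gave 2173 probe sets, 5 adipokine and receptor probe sets, 3 of their genes and 26 pathway genes. The numbers were not treated as pairs.

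Differences that changed sign were not past the test under any setting. Adipoq was -0.02 under quantile normalization and -0.08 within the first accession range, Agt was -0.02 within the second and Sfrp5 1.17 within the first. Adipor2 1434329_s_at was 0.00 with median scaling, 0.01 with the replicate block, 0.00 with the accession covariate, 0.10 within the second range, 0.01 without KO replicate 2 and with the covariate, and -0.12 to 0.07 leaving out 1 array. The cause was not tested. Of 272 settings of the adipokine and receptor probe sets, 238 kept direction and call, 6 lost a call, 15 gained one and 13 changed sign. Of 562 settings of 27 named pathway probe sets, 415 kept both, 110 lost a call, 37 gained one and 0 changed sign.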
